A study of Mus musculus with 9 samples.

Results

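Serine synthesis and the amino acid response were described here through 10 mouse genes: Phgdh, Psat1 and Psph of the serine pathway, Shmt2 and Mthfd2 of mitochondrial one-carbon metabolism, Asns, the transporters Slc7a5 and Slc7a11, and the ATF4 targets Chac1 and Trib3. The genes were chosen by name, with earlier results of these data known, and found by their Ensembl identifiers. They were 10 of the 49585 genes in the files, and all 10 were among the 15867 genes tested. RNA-seq was made from organoids grown for 5 days from flow-sorted prostate basal cells of C57BL/6J mice, in 3 media with 3 libraries each. RD7 organoids received dihydrotestosterone (DHT), the potent androgen, at 100 nM together with R-spondin1, a secreted amplifier of Wnt signaling, at 500 ng/ml. R organoids received R-spondin1 at 500 ng/ml and no DHT. BM organoids received neither. The medium of all 3 groups was advanced DMEM/F12 with B27, HEPES, GlutaMAX, antibiotics, EGF at 50 ng/ml, the TGF-β receptor inhibitor A83-01, Noggin and the ROCK inhibitor Y-27632. It also held N-acetylcysteine at 1.25 mM, a cysteine source, in every group. There was no group with DHT alone, so DHT was compared only in the presence of R-spondin1. Whether replicate libraries represent different mice or cultures is not stated in the labels, and p-values then measure only the spread between these libraries.

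Cells make serine from the glycolytic intermediate 3-phosphoglycerate in a chain of steps: PHGDH oxidizes it, PSAT1 transfers an amino group from glutamate, and PSPH removes the phosphate. SHMT2 then splits serine into glycine and a one-carbon unit in mitochondria, which MTHFD2 oxidizes further for purine and thymidylate synthesis. ATF4 is a transcription factor whose translation increases when eIF2α is phosphorylated, as under amino acid shortage or endoplasmic reticulum stress, and it activates genes for amino acid synthesis, import and tRNA charging. Its messenger RNA level therefore gives only part of its activity.

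In RD7 organoids, 9 of the 10 genes fell against R organoids, where 17.7% of all tested genes fell and 13.4% rose. Asns fell to 53.1 ± 5.70 FPKM in RD7, against 169.9 ± 8.84 FPKM in R, and Slc7a11 to 2.43 ± 0.65 FPKM, against 12.02 ± 0.89 FPKM (SD, n = 3 each). The exception was Phgdh, at 173.0 ± 11.0 FPKM in RD7 and 183.7 ± 11.4 FPKM in R. In R organoids, 8 of the 10 genes rose against BM organoids, where 4.39% of all tested genes rose and 5.64% fell. Summed over the 10 genes, the level was 545 to 582 FPKM in RD7 libraries, 1107 to 1188 FPKM in R libraries and 625 to 683 FPKM in BM libraries. FPKM is reads normalized to exon length and to library total, so levels can be set beside each other between genes. In bulk RNA, fewer cells of a type and less RNA per cell cannot be told apart.

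**Figure D1:**
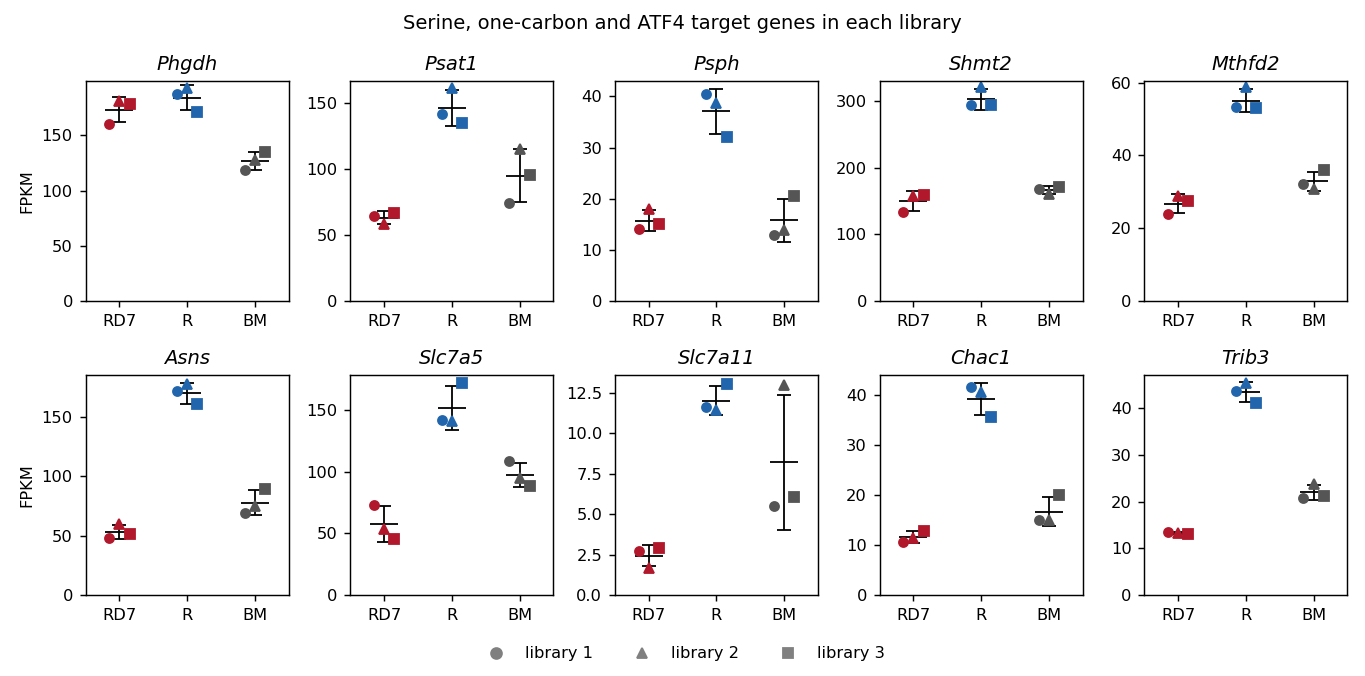
FPKM of each of the 10 genes (vertical axes) in the 9 libraries, RD7, R and BM from left to right, with a point per library, a horizontal line at the group mean and whiskers of 1 SD. R libraries lie above every RD7 library in 9 panels; in the Phgdh panel RD7 overlaps R, both above BM, and in the Slc7a11 panel 1 BM library reaches the R level.

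Facts of the whole series that bear on these values were as follows. Libraries held 6505860 (BM 1) to 24141021 (BM 2) counted reads, and each of the 10 genes had at least 159 reads in every library. The media were checked on genes known to respond to them: the Wnt target Axin2 averaged 3.97 ± 0.60 FPKM in RD7, 4.28 ± 1.17 FPKM in R and 0.351 ± 0.038 FPKM in BM, and the androgen target Fkbp5 109.4 ± 16.3, 4.29 ± 0.74 and 5.84 ± 1.22 FPKM (SD, n = 3 each). All 6 basal markers were detected, and their summed level was 8314 to 9415 FPKM in RD7, 9696 to 10301 FPKM in R and 7041 to 7922 FPKM in BM. Krt5, Krt14 and Krt15 carried that sum. Their means in RD7 and BM were 2397 and 2600 FPKM for Krt5, 1754 and 1751 FPKM for Krt14, and 4721 and 3094 FPKM for Krt15. Means lower in RD7 than in BM were those of Krt5, Trp63 (26.5 and 40.7 FPKM), Itga6 (15.5 and 46.7 FPKM) and Ngfr (2.66 and 5.80 FPKM). The 7 luminal markers summed to 3783 to 4784 FPKM in RD7, 2711 to 3207 FPKM in R and 3439 to 4435 FPKM in BM. Both sums differed between groups, and their part in the results was not tested. Of the 8 mesenchymal markers, which summed to 65.1 to 93.1 FPKM in RD7, 22.7 to 29.1 FPKM in R and 14.4 to 22.9 FPKM in BM, Dcn alone gave 63.9 to 91.7 FPKM in RD7. Acta2 ran the other way, with means of 1.29 FPKM in RD7, 3.69 FPKM in R and 12.4 FPKM in BM, where it made up most of the sum, and Col1a1 stayed at or below 0.304 FPKM in every library. The 7 leukocyte markers summed to 5.05 to 6.23, 5.47 to 6.65 and 4.32 to 4.51 FPKM in RD7, R and BM, with Tyrobp at 0 in all libraries and Ptprc at or below 0.0065 FPKM. Csf1r (means of 2.29, 2.84 and 3.18 FPKM in the same order) and Cd68 (2.39, 2.64 and 1.21 FPKM) made up most of each sum. Lyz2 averaged 0.848 FPKM in RD7 and 0.648 FPKM in R and was 0 in every BM library. The 5 endothelial markers stayed at or below 0.536 FPKM in sum and the 5 seminal vesicle markers at or below 1.07 FPKM, with Svs3a at 0. The 4 neuroendocrine markers, nearly all Ncam1, summed to 1.41 to 1.74 FPKM in RD7, 5.28 to 7.28 FPKM in R and 3.75 to 4.22 FPKM in BM.

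ATF4, paired with a C/EBP partner, is known to bind a composite element whose core is TGATGNAA, and this motif was looked for on both strands of the promoters (250 bases before to 50 after each start) given by RefSeq for GRCm38.p6. Of the 10 genes, 9 had promoter entries, 10 promoters in all. The motif was present in the promoters of 4 genes, Asns, Chac1, Slc7a11 and Trib3, against 1304 of 32851 RefSeq promoters (3.97%). The 30-base windows below are shown because they hold these matches, with the motif in capitals. Each is read 5′ to 3′ on the gene's strand, on chr6:7693214-7693243 (minus strand) for Asns, chr3:50443661-50443690 and chr3:50443642-50443671 (minus) for Slc7a11, chr2:119351038-119351067 (plus) for Chac1 and chr2:152344028-152344057 (minus) for Trib3.
Asns: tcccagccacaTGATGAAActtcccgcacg
Slc7a11, first match: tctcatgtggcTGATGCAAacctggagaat
Slc7a11, second match: acctggagaatTTGCATCAtcatgcagccc
Chac1: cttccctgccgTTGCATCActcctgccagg
Trib3: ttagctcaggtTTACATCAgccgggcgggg
The Asns match and the first Slc7a11 match run along the gene's strand, and the other matches along the opposite one. Counted from the start of the RefSeq transcript, the first base of the motif lies 23 bases before the start in Asns, 66 and 47 before it in Slc7a11 and 193 before it in Chac1, and at base 15 of the transcript in Trib3. The gene spans given below come from GENCODE, whose outermost starts differ: by these, the Asns match lies inside the gene and the Trib3 match before it. No 2 matches overlap.

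The matches in Slc7a11 lie close together, as the stretch directly upstream of the gene shows (chr3:50443615-50443863, minus strand, GRCm38.p6, motif in capitals).
Slc7a11: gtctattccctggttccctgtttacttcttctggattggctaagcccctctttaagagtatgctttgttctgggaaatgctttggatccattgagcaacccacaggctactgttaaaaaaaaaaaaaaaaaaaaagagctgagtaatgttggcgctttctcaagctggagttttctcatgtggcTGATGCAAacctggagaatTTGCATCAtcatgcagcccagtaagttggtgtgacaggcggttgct
The stretch upstream of Phgdh (chr3:98339991-98340219, minus strand), the gene not called in RD7 against R, is shown for comparison and holds no match.
Phgdh: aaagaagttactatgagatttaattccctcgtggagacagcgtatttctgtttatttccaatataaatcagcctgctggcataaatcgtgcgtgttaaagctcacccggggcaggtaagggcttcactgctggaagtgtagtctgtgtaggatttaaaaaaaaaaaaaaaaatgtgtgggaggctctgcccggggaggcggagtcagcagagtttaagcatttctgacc
Psat1, Psph, Shmt2 and Mthfd2, which fell in RD7 against R, also held no match in this window. A match is a run of letters and not a measured binding site, and these data hold no measure of binding. The antioxidant response motif TGACNNNGC was present in 3 of the 9 genes (Asns, Phgdh and Psph) and in 12.4% of all promoters. The androgen receptor motif, GNACA and TGTNC with 3 bases between them, in 0.475% of all promoters, and the TCF motif ATCAAAG, in 3.73%, were present in none of the 9.

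Phgdh (chromosome 3, 98313170 to 98339990, minus strand, GRCm38), the first enzyme of the pathway, had 160.4, 180.6 and 178.2 FPKM in RD7 libraries, 187.1, 192.9 and 170.9 FPKM in R libraries and 118.7, 127.5 and 134.7 FPKM in BM libraries. RD7 and R overlapped, and every library of both lay above every BM library. In limma, Phgdh was higher in R than in BM by 0.53 ± 0.12 on the log2(FPKM + 0.5) scale (SE, adjusted p = 0.017) and higher in RD7 than in BM by 0.45 ± 0.12 (adjusted p = 0.013). Between RD7 and R the log2 difference was -0.09 ± 0.12, with a 95% interval of -0.35 to 0.18 and an adjusted p of 0.61 in limma. That interval lies above those of the other 9 genes, whose upper bounds in the same comparison were -0.74 or lower; the difference between genes was not itself tested. The processed pseudogene Phgdh-ps1 was at most 0.513 FPKM in any library. The call against BM in R was lost without BM 1, R 1 or R 2 (adjusted p in limma 0.058, 0.090 and 0.097).

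Psat1 (chromosome 19, 15904678 to 15947337, minus strand), the aminotransferase of the second step, had 64.6, 58.1 and 67.0 FPKM in RD7, 141.5, 161.2 and 135.0 FPKM in R and 74.6, 114.7 and 95.2 FPKM in BM. No 2 groups overlapped, R being highest and RD7 lowest, and BM spread most. In limma, Psat1 fell by 1.20 ± 0.16 (log2) in RD7 against R (adjusted p = 3.9e-04) and by 0.56 ± 0.16 in RD7 against BM (adjusted p = 0.019), and rose by 0.64 ± 0.16 in R against BM (adjusted p = 0.035). The rise in R was lost in limma without BM 1, R 1, R 2, R 3 or RD7 3 (adjusted p of 0.055 to 0.157). It was also lost with the 2 groups alone in the fit (0.074). The fall against BM was lost in limma without BM 2 or RD7 2 (0.069 and 0.071) or with the length trend removed (-0.39, adjusted p = 0.062).

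Psph (chromosome 5, 129765558 to 129787449, minus strand), the phosphatase of the last step, had 14.1, 18.1 and 15.1 FPKM in RD7, 40.4, 38.8 and 32.0 FPKM in R and 13.0, 13.9 and 20.6 FPKM in BM. The R libraries stood above all others, and RD7 lay within the BM range. In limma, Psph fell by 1.21 ± 0.19 (log2) in RD7 against R (adjusted p = 9.5e-04) and rose by 1.23 ± 0.19 in R against BM (adjusted p = 0.0021). Between RD7 and BM the log2 difference was 0.02 ± 0.19 (95% interval -0.40 to 0.44, adjusted p = 0.95 in limma). Psph shares 10.4% of its exon bases with Cct6a on the opposite strand, whose level was 100.3 to 105.0 FPKM in RD7, 113.7 to 133.0 FPKM in R and 102.2 to 124.7 FPKM in BM. The library kit does not mark strand, so reads in those bases cannot be told apart.

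The balance within the pathway differed between groups, a ratio chosen after the values were seen and given with no test. Phgdh stood at 2.48, 3.11 and 2.66 times the FPKM of Psat1 in RD7 libraries, at 1.32, 1.20 and 1.27 times in R libraries and at 1.59, 1.11 and 1.41 times in BM libraries. All 3 RD7 libraries lay above the other 6.

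Shmt2 (chromosome 10, 127517123 to 127522444, minus strand), which makes glycine and a one-carbon unit from serine in mitochondria, had 133.5, 157.6 and 159.6 FPKM in RD7, 293.4, 320.1 and 293.3 FPKM in R and 168.2, 160.5 and 171.6 FPKM in BM. Its R mean was the highest of the 10 genes and above that of 99.2% of tested genes. RD7 lay just under BM without overlap. In limma, Shmt2 fell by 1.01 ± 0.12 (log2) in RD7 against R (adjusted p = 1.5e-04) and rose by 0.86 ± 0.12 in R against BM (adjusted p = 0.0012). RD7 and BM differed by -0.15 ± 0.12 (95% interval -0.42 to 0.11, adjusted p = 0.31 in limma), and by -0.33 with the length trend removed (adjusted p = 0.028).

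Mthfd2 (chromosome 6, 83305691 to 83325908, minus strand), the mitochondrial dehydrogenase and cyclohydrolase that acts next, had 23.8, 28.8 and 27.5 FPKM in RD7, 53.3, 58.7 and 53.1 FPKM in R and 32.1, 30.8 and 35.9 FPKM in BM. The groups did not overlap. In limma, Mthfd2 fell by 1.03 ± 0.13 (log2) in RD7 against R (adjusted p = 1.8e-04) and rose by 0.73 ± 0.13 in R against BM (adjusted p = 0.004), while the RD7 and BM levels differed by -0.30 ± 0.13 (adjusted p = 0.074). Shmt2 and Mthfd2 thus had RD7 to R changes of nearly the same size, with means 2.01 and 2.06 times as high in R as in RD7.

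Asns (chromosome 6, 7675169 to 7693254, minus strand), which makes asparagine from aspartate and is a classical ATF4 target, had 48.3, 59.4 and 51.6 FPKM in RD7, 171.4, 178.0 and 160.5 FPKM in R and 69.1, 75.3 and 89.3 FPKM in BM. The groups did not overlap, and R stood apart from both others. In limma, Asns fell by 1.67 ± 0.14 (log2) in RD7 against R (adjusted p = 1e-05) and by 0.55 ± 0.14 in RD7 against BM (adjusted p = 0.01), and rose by 1.13 ± 0.14 in R against BM (adjusted p = 4.5e-04). Its mean was 3.20 times as high in R as in RD7 and 2.18 times as high in R as in BM.

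Slc7a5 (chromosome 8, 121881150 to 121907694, minus strand), the LAT1 transporter of large neutral amino acids, had 73.4, 53.5 and 45.4 FPKM in RD7, 142.1, 141.0 and 172.1 FPKM in R and 108.4, 95.2 and 88.7 FPKM in BM. The groups did not overlap. In limma, Slc7a5 fell by 1.42 ± 0.18 (log2) in RD7 against R (adjusted p = 2.5e-04) and by 0.78 ± 0.18 in RD7 against BM (adjusted p = 0.0073). The R to BM difference of 0.64 ± 0.18 missed the threshold (adjusted p = 0.053) and passed it without RD7 1 or RD7 3 (0.022 and 0.044).

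Slc7a11 (chromosome 3, 49892526 to 50443614, minus strand), the xCT exchanger that imports cystine for glutathione synthesis, had 2.72, 1.68 and 2.89 FPKM in RD7, 11.6, 11.4 and 13.0 FPKM in R and 5.53, 13.0 and 6.09 FPKM in BM. It had the lowest mean FPKM of the 10 genes in each group, on a length of 13922 bases, the longest of the 10. By reads it was not the lowest: R 1 held 2580 reads for Slc7a11 and 1085 for Chac1. BM 2 stood at the R level, away from the other BM libraries, so R and BM overlapped, while every RD7 library lay below all others. In limma, Slc7a11 fell by 2.12 ± 0.29 (log2) in RD7 against R (adjusted p = 4.1e-04) and by 1.498 ± 0.29 in RD7 against BM (adjusted p = 0.0031). The first was the largest of the 10 changes in that comparison. R and BM differed by 0.62 ± 0.29 (adjusted p = 0.21 in limma), and by 0.99 (adjusted p = 0.018) without BM 2.

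Slc3a2, the heavy chain that carries both LAT1 and xCT to the membrane and is not among the 10, had 81.2, 99.8 and 103.5 FPKM in RD7, 166.6, 183.9 and 158.3 FPKM in R and 81.9, 87.0 and 100.3 FPKM in BM. Its R libraries stood above all others. In limma it fell by 0.84 ± 0.14 (log2) in RD7 against R (adjusted p = 0.0014) and rose by 0.92 ± 0.14 in R against BM (adjusted p = 0.002), with a difference of 0.08 ± 0.14 between RD7 and BM (adjusted p = 0.67).

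Chac1 (chromosome 2, 119351229 to 119354381, plus strand), an enzyme that breaks down glutathione and a target of ATF4, had 10.55, 11.4 and 12.8 FPKM in RD7, 41.5, 40.5 and 35.6 FPKM in R and 14.93, 14.95 and 20.002 FPKM in BM. The groups did not overlap. In limma, Chac1 fell by 1.72 ± 0.15 (log2) in RD7 against R (adjusted p = 1.6e-05) and by 0.50 ± 0.15 in RD7 against BM (adjusted p = 0.022), and rose by 1.22 ± 0.15 in R against BM (adjusted p = 4.8e-04). The fall against BM was lost without BM 3, RD7 1 or RD7 2 (adjusted p in limma 0.053, 0.059 and 0.066) and with the 2 groups alone in the fit (0.058). With the length trend removed it was -0.83.

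Trib3 (chromosome 2, 152337422 to 152344032, minus strand), a pseudokinase that dampens ATF4 signaling in a feedback loop, had 13.6, 13.3 and 13.0 FPKM in RD7, 43.6, 45.4 and 41.1 FPKM in R and 20.8, 23.9 and 21.3 FPKM in BM. The groups did not overlap, and it had the tightest RD7 replicates of the 10 genes relative to its mean. In limma, Trib3 fell by 1.67 ± 0.12 (log2) in RD7 against R (adjusted p = 2.8e-06) and by 0.70 ± 0.12 in RD7 against BM (adjusted p = 0.0012), and rose by 0.97 ± 0.12 in R against BM (adjusted p = 3.7e-04).

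**Figure D2:**
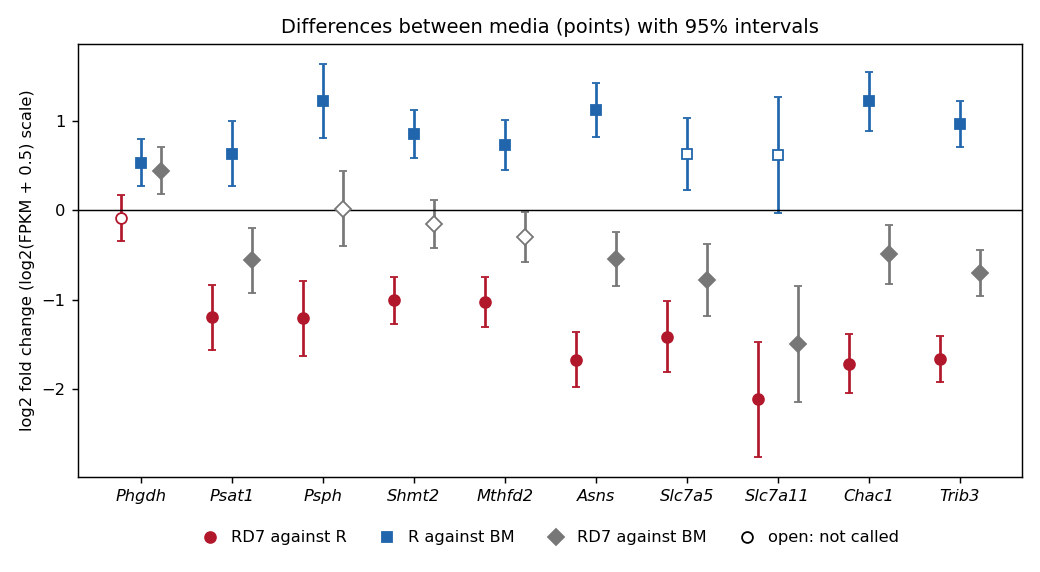
Log2 fold change of each of the 10 genes (vertical axis, log2 of FPKM + 0.5) in the 3 comparisons, with 95% intervals as bars; filled markers passed adjusted p of 0.05 in limma over all 15867 genes and open markers did not. RD7 against R lies below 0 for 9 genes, with Phgdh near 0, and R against BM lies above 0 for all 10, 8 of them called.

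By comparison, the 10 genes gave the following counts. In RD7 against R, 0 rose and 9 fell, with a median log2 fold change of -1.31, against -0.09 over all tested genes. In that comparison 31.1% of all genes were called, 2121 higher and 2816 lower. With median-of-ratios scaling the split was 2532 higher and 2191 lower, and with a gene-length trend removed 2648 higher and 2329 lower; under both, the same 9 genes were lower. The RD7 and R libraries did not overlap for 9 of the 10 genes and for 51.8% of all tested genes.

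In R against BM, 8 rose and 0 fell, with a median log2 fold change of 0.79, against 0.02 over all genes, of which 10.0% were called. The 2 that were not called were Slc7a11 and Slc7a5. The groups did not overlap for 9 of the 10 genes, against 30.3% of all tested genes. The count of rises was 6 to 9 when single libraries were left out. The number of genes called among all genes depended more on single libraries: it was 930 without R 1, 940 without R 2 and 3402 without BM 3, against 1591 with all, and the split without BM 3 was 2089 higher and 1313 lower in place of 696 and 895.

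In RD7 against BM, 1 gene rose (Phgdh) and 6 fell (Asns, Psat1, Slc7a11, Slc7a5, Chac1 and Trib3), with a median log2 fold change of -0.52, against -0.07 over all genes. Of all tested genes, 21.6% rose and 25.4% fell in this comparison, so the background of calls was high. Groups did not overlap for 9 of the 10 genes and for 52.4% of all genes. The 3 comparisons share libraries, R or BM or RD7 in each pair, and their values are set side by side only.

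**Figure D3:**
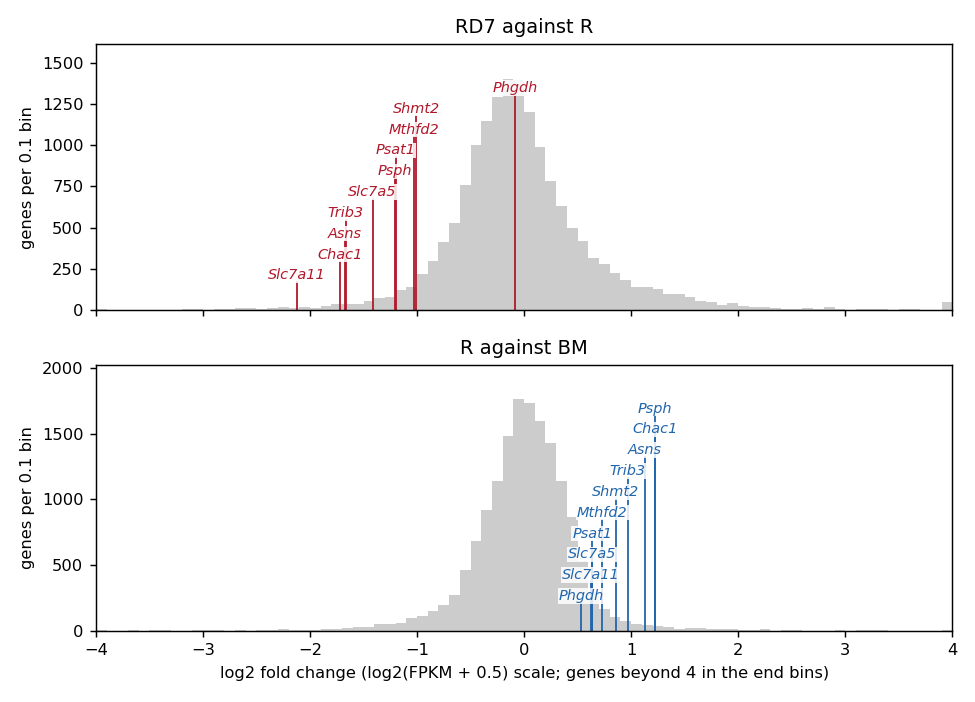
Number of the 15867 tested genes (vertical axes) per bin of log2 fold change (horizontal axis, log2 of FPKM + 0.5, grey) in RD7 against R and in R against BM, with a vertical line at the value of each of the 10 genes, whose height carries no value. In RD7 against R the lines lie at -1.01 or lower except Phgdh at -0.09, and in R against BM they lie between 0.53 and 1.23.

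The rest of the pathway was followed in gene lists chosen by function, with earlier results of these data known. Among 28 tested serine and one-carbon genes outside the 10 (Ftcd was not tested), 4 rose and 5 fell in RD7 against R, 2 rose and 1 fell in R against BM, and 7 rose and 6 fell in RD7 against BM, with medians of -0.04, 0.07 and -0.07. Calls thus went both ways. Over all tested genes, 31.1%, 10.0% and 47.0% were called in these comparisons, so the counts in this list were near the background. The 5 falls against R became 3 without R 3 or RD7 3, and the 2 rises in R against BM became 0 without BM 1, BM 2, R 1 or R 2 and 1 without R 3 or RD7 3. Aldh1l2, the mitochondrial enzyme that releases CO2 from formyl-folate, fell by 2.39 ± 0.28 (log2) in RD7 against R (adjusted p = 1.4e-04 in limma) and by 1.66 ± 0.28 against BM (adjusted p = 0.0014). Its RD7 libraries lay at 0.342 to 1.17 FPKM, near the pseudocount of 0.5. The Aldh1l2 change against R ran from -1.981 to -3.155 across the alternatives. Mthfd1l, which releases formate in mitochondria, fell by 1.30 ± 0.19 against R (adjusted p = 6.6e-04 in limma) and by 1.18 ± 0.19 against BM (adjusted p = 0.0011). Of the 4 glycine cleavage genes in the list, Amt rose by 1.23 ± 0.22 and Gldc by 1.08 ± 0.24 in RD7 against R (adjusted p = 0.0025 and 0.0073 in limma), while Gcsh (0.23, adjusted p = 0.46) and Dld (-0.03, 0.89) did not pass. Amt also rose by 0.86 ± 0.22 against BM (adjusted p = 0.012 in limma), where Gldc did not pass (-0.14, 0.65). Amt is a low gene, and its change against R ran from 0.89 with a pseudocount of 1 to 2.06 with limma-voom. Gldc fell by 1.22 ± 0.24 in R against BM (adjusted p = 0.0086 in limma), where the folate hydrolase Ggh rose by 0.84 ± 0.20 and the serine carrier family member Sfxn2 by 0.63 ± 0.16 (adjusted p = 0.025 and 0.033). The Ggh call was lost without BM 1, BM 2, R 1 or R 2 (adjusted p of 0.086 to 0.114 in limma), and the Sfxn2 call without BM 1, BM 2, R 1, R 2, R 3 or RD7 3 (0.050 to 0.141). Methionine synthase, Mtr, fell by 1.16 ± 0.27 in RD7 against BM (adjusted p = 0.0071 in limma). Shmt1, the cytosolic counterpart of Shmt2, did not pass against R (0.25 ± 0.11, adjusted p = 0.11 in limma) and rose by 0.49 ± 0.11 in RD7 against BM (adjusted p = 0.0062); in R against BM it differed by 0.24 ± 0.11 (adjusted p = 0.20).

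Of 29 other ATF4 pathway genes, 3 rose and 15 fell in RD7 against R, 8 rose and 0 fell in R against BM, and 7 rose and 6 fell in RD7 against BM, with medians of -0.58, 0.37 and 0.02. Among all tested genes, 13.4% rose and 17.7% fell in RD7 against R. In R against BM 4.39% rose and 5.64% fell. In RD7 against BM 47.0% were called, so the count of calls in this list there was near the background. The 3 rises in RD7 against R became 5 without BM 3. Atf4 itself had 109.2, 109.0 and 134.6 FPKM in RD7, 190.1, 193.4 and 157.7 FPKM in R and 100.2, 103.0 and 137.7 FPKM in BM. R libraries lay above all others, and RD7 overlapped BM. In limma Atf4 fell by 0.62 ± 0.16 (log2) in RD7 against R (adjusted p = 0.017) and rose by 0.67 ± 0.16 in R against BM (adjusted p = 0.026), with 0.06 ± 0.16 between RD7 and BM (adjusted p = 0.79). The fall was lost without R 1, R 2 or RD7 2 (adjusted p of 0.061 to 0.071 in limma), and the rise without BM 1, BM 2, R 1 or R 2 (0.089 to 0.119). Ddit3, which encodes the stress factor CHOP, rose by 0.51 ± 0.14 in R against BM (adjusted p = 0.047 in limma), a call lost without every library but BM 3 and RD7 2 (0.055 to 0.192). It was also lost with median-of-ratios scaling (0.063) and limma-voom (0.079), and with the length trend removed, where the difference was 0.30 (0.172). It differed by -0.23 ± 0.14 in RD7 against R (adjusted p = 0.24 in limma) and by 0.28 ± 0.14 in RD7 against BM (adjusted p = 0.13). Atf5, a related factor, did not pass in RD7 against R (0.04 ± 0.20, adjusted p = 0.89 in limma) or in R against BM (0.65 ± 0.20, adjusted p = 0.067), where it passed without BM 3 or RD7 2 (0.030 and 0.041). It rose by 0.69 ± 0.20 in RD7 against BM (adjusted p = 0.017 in limma), a call lost without BM 2 or RD7 2 (0.061 and 0.063) or with the length trend removed (0.44, adjusted p = 0.067).

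Among the targets in that list, Pycr1, the last enzyme of proline synthesis, fell by 1.41 ± 0.14 (log2) in RD7 against R (adjusted p = 5.2e-05 in limma) and rose by 1.08 ± 0.14 in R against BM (adjusted p = 8.5e-04). Avil, an actin-binding protein, fell by 1.79 ± 0.16 and rose by 0.78 ± 0.16 in the same comparisons (adjusted p = 1.8e-05 and 0.011 in limma); its fall, of a low gene, ran from 1.28 with a pseudocount of 1 to 3.31 with limma-voom. Cth, which makes cysteine from cystathionine, rose by 1.00 ± 0.15, and Ddit4, an inhibitor of mTORC1, by 0.89 ± 0.17 in R against BM (adjusted p = 0.0016 and 0.0071 in limma). The hormone genes Fgf21 and Stc2 fell by 1.62 ± 0.28 and 1.38 ± 0.14 in RD7 against R (adjusted p = 0.0018 and 3.6e-05 in limma), the Fgf21 fall running from 1.14 to 2.93 under the same settings. Against BM, Stc2 fell by 1.12 ± 0.14 and the bZIP factor Jdp2 by 1.19 ± 0.13 in RD7 (adjusted p = 1.5e-04 and 7.5e-05 in limma). In the same comparison Eif4ebp1, a repressor of cap-dependent translation, rose by 1.52 ± 0.28 and the GTPase Rit1 by 1.06 ± 0.14 (adjusted p = 0.0022 and 3.1e-04 in limma), so the list was split against BM.

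Of 20 cytosolic aminoacyl-tRNA synthetases, the enzymes that load amino acids onto tRNA, 0 rose and 10 fell in RD7 against R, 4 rose and 0 fell in R against BM, and 0 rose and 7 fell in RD7 against BM. Their median log2 fold changes were -0.46, 0.23 and -0.19. Of all tested genes, 17.7% fell in RD7 against R and 4.39% rose in R against BM. In RD7 against BM 25.4% fell and 47.0% were called, the second a larger share than in this list. In RD7 against R, Cars fell by 1.17 ± 0.13, Iars by 0.93 ± 0.23, Lars by 0.92 ± 0.16 and Gars by 0.87 ± 0.11 (adjusted p of 9.5e-05, 0.014, 0.0015 and 1.6e-04 in limma). The Iars call was lost without R 3, RD7 2 or RD7 3 (adjusted p of 0.054 to 0.056 in limma). In R against BM, Yars rose by 0.52 ± 0.11, Gars by 0.50 ± 0.11, Cars by 0.47 ± 0.13 and Nars by 0.47 ± 0.13 (adjusted p of 0.016, 0.012, 0.045 and 0.047 in limma). Without R 1, R 2 or R 3, at most 1 of the 20 passed in R against BM (adjusted p of 0.058 to 0.194 for the 4 named, except Gars without R 3), and without RD7 2, 2 passed. The Cars call there was also lost without each of the other libraries but BM 2, and the Nars call without each but BM 1 and BM 3. Against BM, Iars fell by 1.17 ± 0.23, Lars by 0.87 ± 0.16, Cars by 0.69 ± 0.13 and Aars by 0.58 ± 0.12 in RD7 (adjusted p of 0.0034, 0.0019, 0.0025 and 0.0047 in limma). With the length trend removed, 4 rose and 7 fell in that comparison, Cars was at -0.38 and Aars was no longer called (adjusted p = 0.198).

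Of 19 tested amino acid transporters outside the 10 (Slc7a2 was not tested), 1 rose and 7 fell in RD7 against R, 2 rose and 2 fell in R against BM, and 1 rose and 6 fell in RD7 against BM, with medians of -0.16, -0.08 and -0.25. The shares called over all tested genes were 31.1%, 10.0% and 47.0%, the last a larger share than in this list. With the length trend removed the split was 4 and 6 in RD7 against R and 6 and 6 in RD7 against BM. Leaving out single libraries gave 1 to 2 rises and 1 to 2 falls in R against BM, and 0 to 2 rises in RD7 against BM. Slc7a8, the LAT2 relative of Slc7a5, fell by 2.10 ± 0.22 (log2) against R and by 2.63 ± 0.22 against BM (adjusted p = 6.9e-05 and 1.4e-05 in limma). The cationic amino acid transporter Slc7a3 fell by 1.89 ± 0.15 in RD7 against R (adjusted p = 8.2e-06 in limma) and rose by 0.65 ± 0.15 in R against BM (adjusted p = 0.021), a rise lost without BM 1, R 1, R 2 or R 3 (0.059 to 0.096). Slc1a4, a carrier of alanine, serine and cysteine, fell by 0.84 ± 0.18 in RD7 against R (adjusted p = 0.0064 in limma). The glutamine carrier Slc38a1 fell by 1.58 ± 0.15 in R against BM (adjusted p = 6.3e-05 in limma), and Slc43a2 by 0.66 ± 0.18 (adjusted p = 0.047), the second lost without every library but BM 3 and RD7 1 (0.051 to 0.179). Against BM, RD7 organoids were also lower in Slc38a1, by a log2 difference of -1.004 ± 0.15, and in Slc38a2, by -0.98 ± 0.20 (adjusted p = 5.3e-04 and 0.0039 in limma); Slc38a1 was at -0.64 with the length trend removed.

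**Figure D4:**
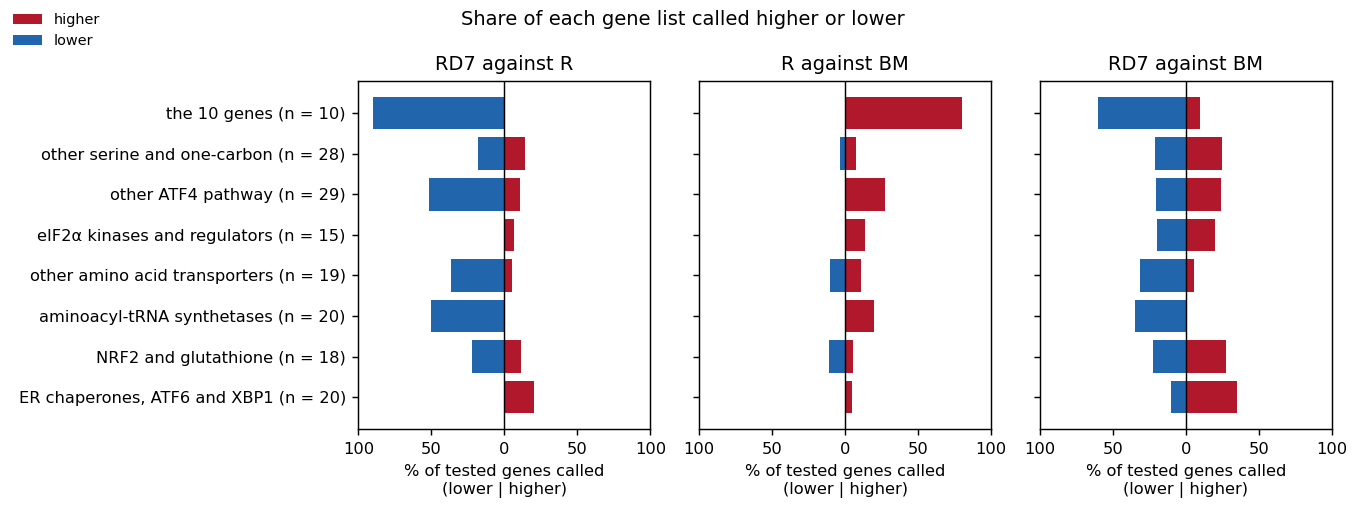
Share of tested genes in each gene list (rows, with the 10 genes on top) called at adjusted p of 0.05 in limma, in % (horizontal axes), lower to the left in blue and higher to the right in red, for the 3 comparisons. In RD7 against R the falls in the ATF4 list (15 of 29) and among tRNA synthetases (10 of 20) stand beside 5 of 28 in the remaining serine and one-carbon genes. Of all tested genes, 17.7% fell in that comparison.

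Regulators upstream of ATF4 were followed in 15 eIF2α kinases and regulators. Of these, 1 rose and 0 fell in RD7 against R, 2 rose and 0 fell in R against BM, and 3 rose and 3 fell in RD7 against BM, with medians of -0.08, 0.04 and 0.05. Over all genes, 31.1%, 10.0% and 47.0% were called in these comparisons, so the counts in R against BM and RD7 against BM were near the background. Against R, 4 of the 15 rose in RD7 with the length trend removed, and 2 with median-of-ratios scaling. Subunits of eIF2B, the exchange factor that phosphorylated eIF2α inhibits, made up the rises named here. Eif2b2 rose by 0.54 ± 0.18 (log2) in RD7 against R (adjusted p = 0.04 in limma), and Eif2b4 and Eif2b1 by 0.57 ± 0.15 and 0.52 ± 0.14 in R against BM (adjusted p = 0.035 and 0.039). The Eif2b2 call was lost without any R library, RD7 2 or RD7 3 (adjusted p of 0.054 to 0.142 in limma). The Eif2b4 and Eif2b1 calls were lost without BM 1, BM 2, R 1, R 2 or RD7 2, and Eif2b4 also without R 3 (0.051 to 0.177); without BM 3, 4 of the 15 rose. Eif2b2 rose by 0.96 ± 0.18 and Eif2b1 by 0.91 ± 0.14 in RD7 against BM (adjusted p = 0.0022 and 7.5e-04 in limma). Ppp1r15b, which directs a phosphatase to eIF2α, fell by 1.05 ± 0.28 and Gcn1l1, a partner of the kinase GCN2, by 0.89 ± 0.32 in RD7 against BM (adjusted p = 0.014 and 0.042 in limma), the first lost without BM 2 or RD7 2 (0.053 and 0.055) and the second without every library but BM 3, R 3 and RD7 1 (0.052 to 0.149). With the length trend removed, 6 of the 15 rose and 1 fell in RD7 against BM.

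The other arms of the endoplasmic reticulum stress response were followed in 20 chaperone, ATF6 and XBP1 genes. Of these, 4 rose and 0 fell in RD7 against R, 1 rose and 0 fell in R against BM, and 7 rose and 2 fell in RD7 against BM, with medians of 0.04, -0.09 and -0.01. Among all tested genes, 31.1% were called in RD7 against R and 10.0% in R against BM, both larger shares than in this list. In RD7 against R, 13.4% of all tested genes rose and 17.7% fell. The 9 called in RD7 against BM are a share near that of all genes in that comparison (47.0%). Derl3, of the degradation machinery, rose by 1.56 ± 0.24 (log2) against R and 1.57 ± 0.24 against BM (adjusted p = 8.7e-04 and 8e-04 in limma). Sdf2l1, a chaperone cofactor, rose by 1.29 ± 0.22 and 1.43 ± 0.22 in the same comparisons (adjusted p = 0.0016 and 8.1e-04 in limma). In RD7 against R, Dnajc3 rose by 0.72 ± 0.14 and Pdia6 by 0.44 ± 0.14 (adjusted p = 0.0038 and 0.035 in limma), the second lost without any R library, RD7 2 or RD7 3 (0.073 to 0.122). In R against BM, Xbp1 rose by 0.54 ± 0.14 (adjusted p = 0.037 in limma), a call lost without every library but BM 3, RD7 1 and RD7 2 (0.056 to 0.171). In RD7 against BM, Manf rose by 0.92 ± 0.25 and Hyou1 fell by 0.90 ± 0.32 (adjusted p = 0.015 and 0.042 in limma), both lost without BM 1, BM 2, RD7 2 or RD7 3 (0.051 to 0.147), and Hyou1 also without R 1 or R 2 (0.056 and 0.050). Rises in that comparison numbered 2 to 8 and falls 0 to 4 when single libraries were left out, with the fewest rises without BM 1 or RD7 3.

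Of 18 NRF2 target and glutathione genes, a programme that shares Slc7a11 with ATF4, 2 rose and 4 fell in RD7 against R, 1 rose and 2 fell in R against BM, and 5 rose and 4 fell in RD7 against BM, with medians of -0.11, 0.17 and 0.05. The shares called over all tested genes were 31.1%, 10.0% and 47.0%, so the counts in both RD7 comparisons were near the background. With the length trend removed the split in RD7 against R turned round, to 4 rises and 2 falls. Gclm, the modifier subunit of the first glutathione enzyme, rose by 1.09 ± 0.12 (log2) against R and 1.18 ± 0.12 against BM (adjusted p = 8e-05 and 4.4e-05 in limma). Gsr, glutathione reductase, fell by 0.84 ± 0.14 and 1.03 ± 0.14 in the same comparisons (adjusted p = 0.0012 and 3e-04 in limma). Ggct fell by 1.04 ± 0.26 in RD7 against R, and the quinone reductase Nqo1 by 0.91 ± 0.25 (adjusted p = 0.013 and 0.021 in limma). The Ggct call was lost with the length trend removed (0.050), and the Nqo1 call without R 1, R 2, RD7 2 or RD7 3 (0.058 to 0.069). In RD7 against BM, the lipid peroxide reductase Gpx4 rose by 1.06 ± 0.29 and Taldo1 of the pentose phosphate pathway by 1.01 ± 0.18 (adjusted p = 0.014 and 0.0019 in limma); the Gpx4 call was lost without BM 1, BM 2 or RD7 2 (0.054 to 0.059). In R against BM, the catalytic subunit Gclc fell by 0.73 ± 0.15, malic enzyme Me1 fell by 0.66 ± 0.15 and the heme transporter Slc48a1 rose by 0.52 ± 0.13 (adjusted p = 0.012, 0.018 and 0.032 in limma), all lost without R 1 or R 2 (0.053 to 0.148), Me1 and Slc48a1 also without BM 2 or R 3 (0.059 to 0.105). Leaving out single libraries gave 1 to 3 rises and 2 to 5 falls in RD7 against R, 0 to 4 and 0 to 2 in R against BM, and 2 to 5 and 3 to 5 in RD7 against BM.

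For the 4 genes whose group means ranged most widely, the closest pattern over the 9 libraries was looked for among tested genes outside the lists, as the root mean square difference of centred log2(FPKM + 0.5) values. Among the 10 genes, the one nearest to Chac1 was Asns and the one nearest to Asns was Chac1, at 0.109. Distances were taken from these 4 genes only, so the closest pair of the 10 was not sought. Trib3 was nearest to Asns among the 10, at 0.148, and Slc7a11 to Trib3, at 0.451. Phgdh was farthest from all 4, at 0.658 to 1.01. Outside the lists the nearest gene was Sprr3, a cornified envelope protein gene, for Chac1 (0.121), Slc16a11, of the monocarboxylate transporter family, for Asns (0.139), Rassf10 for Trib3 (0.104) and Slitrk6 for Slc7a11 (0.183). Sprr3 lay at 0.129 to 2.08 FPKM, where the pseudocount sets much of the log2 value: its change in RD7 against R was -1.68, and -1.19 to -3.11 across the alternatives, so its likeness to Chac1 depends on the pseudocount of 0.5. The libraries behind these values are the same 9, and the likeness is a description.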

How the data were processed

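The deposited FPKM values, 1 table per library, were used as the authors gave them. Per the submitters' processing notes CASAVA 1.9, STAR 2.6.1a, featureCounts, edgeR 3.24.1 and GRCm38 were involved; their roles, the annotation release, the strand setting and filters are not given in the sources used here. Per the labels' protocols polyA RNA was amplified with a SMART-Seq kit, without molecular identifiers. Amplified reads are not independent molecules.

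Symbols and lengths came from GENCODE M21. Reads were read back from FPKM with exon lengths: 22971 of the 26813 genes above 0 came out whole within 0.01 of a read, and 3842 needed a fitted length. Each library returned 99.99% of its reads, which gave the depth and the filter (0.5 CPM in 3 libraries). Shmt2 came out whole at 2305 bases rather than the annotated 3109. Differences were tested with limma 3.58.1 in R 4.3.3 on log2(FPKM + 0.5), which understates changes of low genes, with a mean for each group fitted over the 9 libraries together (residual df 6), trended robust moderation, two-sided, and Benjamini-Hochberg adjustment over 15867 genes at 0.05. It was also run on simulated counts with the same dispersion for all genes and no library effects, a simpler case than these data. Python 3.11.15 with pandas 2.3.3 made the summaries. The 10 genes and all lists were chosen with earlier results of these data known. Named genes were all 10, Atf4, Ddit3, Atf5, Shmt1 and Slc3a2, and up to 4 called genes with the largest change per list and comparison. The 19 alternatives cover pseudocount, filter, scaling, gene length, limma-voom on the reads, moderation, the replicate block, the 2 groups alone and leaving out each library.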

Additional observations from a re-analysis of the deposited data

How the results depend on the processing

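In RD7 against R the same 9 genes were lower under all 19 alternatives. In R against BM the count of rises among the 10 ran from 6 to 9 when single libraries were left out and from 6 to 10 otherwise, and in RD7 against BM the count of falls from 4 to 6 and 5 to 6, with 1 rise (Phgdh) throughout. Leaving out single libraries gave 930 to 3402 genes called in R against BM, 3186 to 5739 in RD7 against R and 4836 to 8519 in RD7 against BM; the cause was not tested. With the replicate number as a block, 6 of the 10 genes rose in R against BM (Phgdh and Psat1 were lost). Of all genes 461 rose, against 696. Deviations from group means correlated at -0.521 to 0.272 between same-numbered libraries and at -0.578 to 0.578 between the others. With 3 libraries a group, these values cannot decide whether the numbers pair the libraries. The block also ended all 4 synthetase rises in R against BM (adjusted p of 0.052 to 0.119 in limma) and those of Atf4, Ddit3, Ggh, Eif2b4, Eif2b1, Slc7a3, Slc48a1 and Xbp1 and the Slc43a2 fall (0.057 to 0.117), and the Eif2b2, Pdia6 and Hyou1 calls in the other comparisons (0.053 to 0.066). Without a filter, Psat1, Atf4, Ddit3, Ggh, Sfxn2, Eif2b4, Eif2b1, Slc43a2, Cars, Nars, Slc48a1 and Xbp1 in R against BM were lost (0.050 to 0.090), as were Eif2b2, Nqo1 and Pdia6 in RD7 against R and Gcn1l1 and Hyou1 in RD7 against BM (0.052 to 0.093). Differences near 0 changed sign: Phgdh in RD7 against R to 0.011 with median-of-ratios scaling, Psph in RD7 against BM to -0.0038 with limma-voom and -0.11 to 0.22 without single libraries, and Atf5 in RD7 against R to -0.015 with the length trend removed and -0.13 to 0.15 without single libraries. With the length trend removed, Atf4 and Ddit3 in RD7 against BM were at -0.26 and -0.038, and Atf4 at -0.043 to 0.20 without single libraries; the cause was not tested. Fitting only the 2 groups compared also ended calls in limma. In R against BM these were Psat1, Ddit3, Ggh, Sfxn2, Eif2b4, Eif2b1, Slc43a2, Cars, Nars and Slc48a1 (adjusted p of 0.051 to 0.0855), while Slc7a5 passed (0.033). In RD7 against BM they were Chac1, Gcn1l1 and Hyou1 (0.057 to 0.066). Where 2 libraries of a group remain, their spread is taken to be like that of the other groups. Values for Chac1 and Psph in BM 1 rest on 159 and 365 reads, the thinnest of the 10 genes.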
